A study of Homo sapiens with 4 samples.

Results

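The nuclear-encoded subunits of mitochondrial complex I were taken as all protein-coding genes of the deposited tables whose symbol is NDUFA, NDUFAB, NDUFB, NDUFC, NDUFS or NDUFV followed by a number, which gave 38 of 39261 genes. NDUFAF genes, which encode assembly factors, were not counted among them. The study altered TMEM126A in 2 human breast cancer cell lines by lentivirus and sequenced RNA from 4 cultures at passages 10 to 15, with 1 library per group. MDA-MB-231, a triple-negative line grown in L15 medium with fetal bovine serum, carried either the knockdown construct or the sh-NC control vector. MCF10-Ca1a (Ca1a below), a tumorigenic line of the MCF10A series grown in DMEM/F12 with horse serum, insulin, EGF, cholera toxin and hydrocortisone, carried either the overexpression construct or the empty pCDH vector. The sources used here do not say whether the cells were a pool or a clone, so a ratio compares a pair of cultures and has no replicate check.

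Complex I oxidizes NADH, passes the electrons to ubiquinone and pumps protons across the inner mitochondrial membrane. It is L-shaped: the matrix arm holds the NADH-oxidizing end with the flavin and most iron-sulfur clusters, and the quinone-reducing end where it meets the membrane. The membrane arm holds the proton pumps and is built from a proximal and a distal module. Its hydrophobic pump subunits are encoded in mitochondrial DNA and were not analysed here. TMEM126A is an inner membrane protein known to act in the assembly of the distal membrane module. The 38 genes split into 16 of the matrix arm (8 at the NADH-oxidizing end and 8 at the quinone-reducing end) and 20 of the membrane arm (9 proximal and 11 distal). NDUFAB1, the acyl carrier protein found in both arms, was kept apart. So was NDUFA4, which carries a complex I name but is now held to be a subunit of complex IV. The core subunits, those shared with the bacterial enzyme, were 7 genes, all of the matrix arm.

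The genes were dispersed over 18 chromosomes, with 6 on chromosome 19, 4 on chromosome 11 and 2 on the X chromosome. Their promoters were searched on both strands for motifs of factors known to act on respiratory genes, in the RefSeq windows of 250 bases before and 50 after the start site (GRCh38.p14). A window was given for 33 of 38 subunits and 15516 coding genes of the tables. NDUFB5, NDUFB9, NDUFC2 and NDUFS5 were among those without one. NRF1 is a transcription factor of nuclear respiratory genes, and its motif, a palindrome with a run of 10 set letters, lay in the 250 bases before the start of 1 subunit (3.03% of 33, against 1.73% of the coding genes). The looser form, which allows any letter at the fifth place and includes the first, lay before 5 subunits: NDUFA3, NDUFA9, NDUFA11, NDUFA12 and NDUFB4 (15.2% against 8.84%). The ETS family motif CCGGAAGT lay before 2 (6.06% against 5.88%), NDUFA13 and NDUFS1, and the SP family motif GGGCGGG before 12 (36.4% against 49.6%). The following upstream stretches of 2 subunits hold an NRF1 motif and no exon annotated in GENCODE release 29, and are shown because they place it. Capitals mark the motif, and the lines run 5′ to 3′ on the gene's strand. NDUFB4 (chr3:120596086-120596308, plus strand) has the motif starting 159 bases before the start site and the looser form 63 bases before. NDUFA12 (chr12:95003771-95003947, minus strand) has the looser form 116 bases before. At 63 and 116 bases the looser form lies on the opposite strand, so the lines show its reverse complement.
NDUFB4: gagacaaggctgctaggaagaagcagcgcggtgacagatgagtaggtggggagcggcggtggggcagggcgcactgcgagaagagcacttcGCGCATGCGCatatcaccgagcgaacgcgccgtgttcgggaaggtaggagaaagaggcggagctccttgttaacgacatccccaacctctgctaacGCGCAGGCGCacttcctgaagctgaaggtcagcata
NDUFA12: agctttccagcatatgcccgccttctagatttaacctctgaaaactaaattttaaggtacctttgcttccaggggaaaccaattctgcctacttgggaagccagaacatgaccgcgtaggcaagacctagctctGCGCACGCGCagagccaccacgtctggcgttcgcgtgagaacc

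The motif of YY1, also 10 letters, was absent upstream but lay in the whole 300-base window of 5 subunits (15.2% of 33, against 2.26% of the coding genes). YY1 is a zinc-finger factor whose motif is known from the start of many genes of mitochondrial function. In all 5 the motif lay 11 to 26 bases after the start site on the gene's own strand, and its ATG was the start codon annotated in GENCODE release 29. The 5 sites are shown because they share both the motif and this place, with the motif in capitals and the flanking bases in lower case. Their places in GRCh38.p14 are chr22:42090728-42090757 (minus strand) for NDUFA6, chr12:4649114-4649143 (plus) for NDUFA9, chr10:100529835-100529864 (minus) for NDUFB8, chr5:53560650-53560679 (plus) for NDUFS4 and chr19:1383914-1383943 (plus) for NDUFS7.
NDUFA6: atgctttggcAAGATGGCGGggagcggcgt
NDUFA9: attgtgggaaAAGATGGCGGctgccgcaca
NDUFB8: gaagaaggtgAAGATGGCGGtggccagggc
NDUFS4: tgcctgcagcAAGATGGCGGcggtgtcaat
NDUFS7: ggccgaggccAAGATGGCGGtgctgtcagg

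The libraries held 20673373 reads in the MDA-MB-231 control, 21405193 in the knockdown, 21302171 in the Ca1a control and 21359273 in the overexpression library, counted over genes. The subunits together took 0.232%, 0.231%, 0.201% and 0.216% of them. Counts below are normalized counts, reads scaled by each library's size factor, and each ratio is treated over control with its 95% counting interval (exact conditional binomial, Clopper-Pearson) in brackets. In both Ca1a libraries 1 read has a value of 1, so the normalized counts of Ca1a are unscaled reads. The interval covers counting error only, since reads without molecular identifiers are not independent molecules, and leaves out any other difference between cultures. TMEM126A followed its labels: 559 normalized counts in the MDA-MB-231 control against 22.9 with knockdown, 24.5-fold lower (16.1 to 38.9), and 265 in the Ca1a control against 9381 with overexpression, 35.4-fold higher (31.3 to 40.1). Levels between genes are given in FPKM, which scales by transcript length. By that measure Ca1a carried the epithelial markers EPCAM (131 FPKM in the control) and CDH1 (73.6), which stood at 3.10 and 0.203 FPKM in the MDA-MB-231 control. VIM and ZEB1, of mesenchymal cells, stood at 721 and 8.31 FPKM there against 90.5 and 0.132 in Ca1a. Other markers did not all divide the lines so clearly. The mesenchymal CDH2 was low in both controls (0.185 FPKM in MDA-MB-231 and 0.0442 in Ca1a). The epithelial KRT8 was present in both (112 and 393), while KRT17 stood at 0.946 and 650. Of 7 markers of leukocytes, endothelium, fibroblasts and adipocytes, ADIPOQ was listed at 0 in all 4 libraries, and none passed 4.65 FPKM, the level of CD14 in the overexpression library.

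Of the 38 subunits 36 averaged at least 20 normalized counts over the libraries of both comparisons. The other 2 were NDUFA3, a small proximal membrane arm subunit, with 1 read in the MDA-MB-231 control, 0 with knockdown, 0 in the Ca1a control and 1 with overexpression, and NDUFA6, a quinone-end subunit that holds NDUFAB1, with 0 reads in every library. Both were listed at 0 FPKM, and a count of 0 allows up to 3 reads. They give no ratio and are left out of every count below.

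In MDA-MB-231 the subunit transcripts stood at nearly the same level with and without the knockdown. The median log2 ratio over 36 subunits was 0.02, from -0.13 to 0.24, beside 0.01 over 13292 genes tested, and 24 of 36 ratios were above 0 (background 53.9%). No subunit was called, a call being a ratio of at least 1.2-fold either way with an interval that leaves out 1, a rule that called 5.33% of all genes higher and 3.39% lower. By the interval alone 8 were higher (background 16.8%), 1 was lower (background 11.3%) and 27 were within counting error. Of 35 subunits averaging at least 500 normalized counts, 23 were above 0 (54.6% of such genes), 7 higher beyond counting error (21.8%) and 1 lower (14.6%). In the authors' deposited table the smallest p-value of a subunit was that of NDUFB10, at p = 0.165 (adjusted 1), while 50 genes in all had an adjusted p under 0.05.

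In Ca1a most subunits stood higher in the overexpression library, by small amounts. The median log2 ratio was 0.10, from -0.14 to 0.38, beside 0.01 over 12111 genes tested, and 32 of 36 ratios were above 0 (background 51.5%). By the interval alone 13 were higher (background 18.1%), 0 were lower (background 16.2%) and 23 were within counting error. The call at 1.2-fold was met by 3, all higher (background 5.76%, and 5.94% lower): NDUFS5, NDUFB1 and NDUFA5. Intervals narrow as counts grow, so the abundant genes were also taken alone. Of 31 subunits averaging at least 500 normalized counts, 28 were above 0 (52.7% of such genes), 11 higher beyond counting error (23.6%) and 0 lower (20.8%). In the authors' deposited table NDUFS5 had p = 0.0103, the smallest of the subunits, and an adjusted p of 0.831, and 0 of 37 subunits with a p-value had an adjusted p under 0.05, against 24 genes in all.

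**Figure D1:**
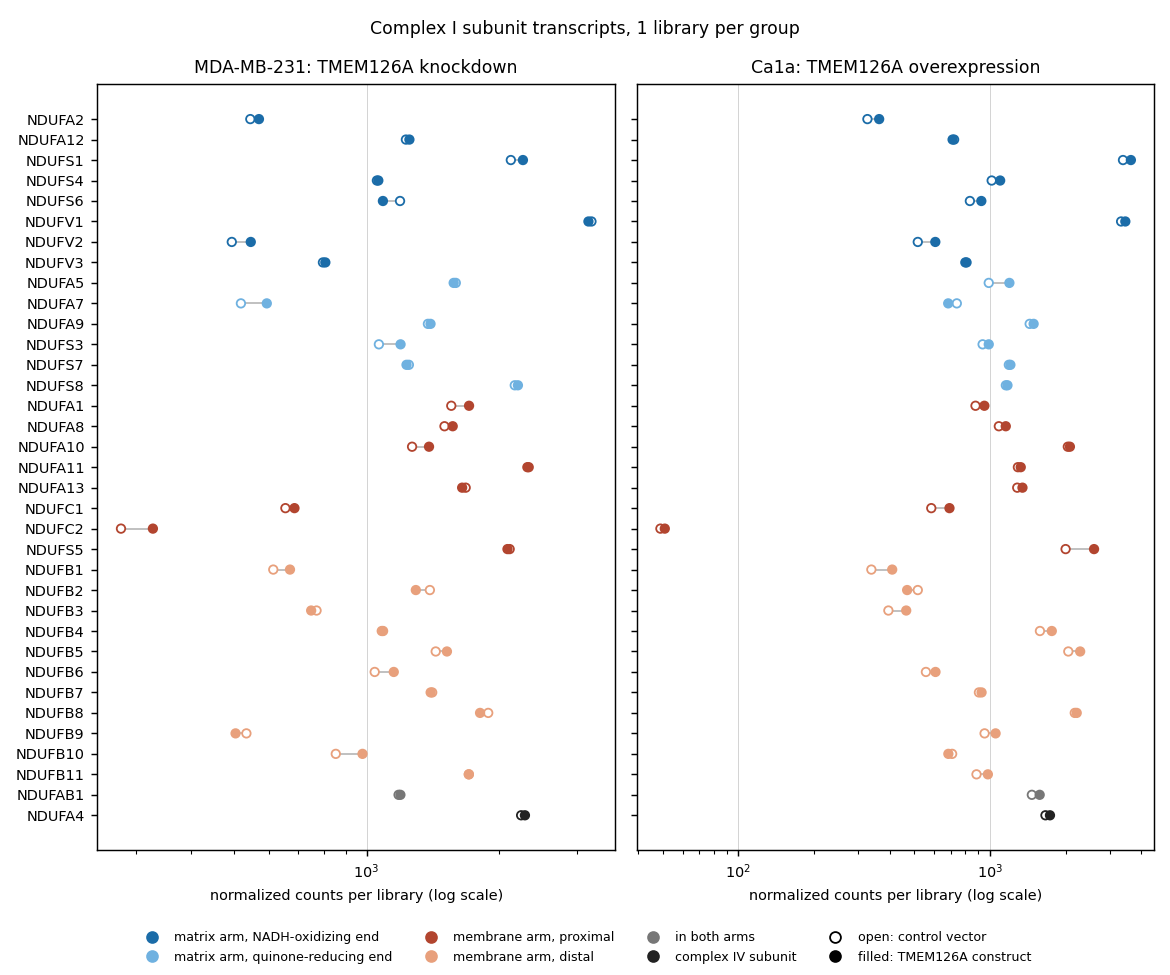
Normalized counts of 35 subunits (log axis) in the control library (open circles) and the library with the TMEM126A construct (filled circles) of MDA-MB-231 (left) and Ca1a (right), coloured by place in the complex, with 1 library per group. Open and filled circles nearly coincide on the left, where no ratio reached 1.2-fold, while most filled circles on the right lie to the right of the open ones, the widest gap being that of NDUFS5 (2001 and 2596).

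At the NADH-oxidizing end, NDUFV1 holds the flavin and the NADH site. It had 3243 normalized counts in the MDA-MB-231 control and 3192 with knockdown, and 3326 in the Ca1a control and 3457 with overexpression. Both ratios, 0.984 (0.937 to 1.03) and 1.04 (0.991 to 1.09), were within counting error. NDUFS1, the largest subunit of the matrix arm with several iron-sulfur clusters, had 2127 and 2266 normalized counts in MDA-MB-231 and 3384 and 3637 in Ca1a. It was higher in the treated library of both lines, at 1.07 (1.004 to 1.13) and 1.07 (1.03 to 1.13), each under the 1.2-fold of the call. NDUFV2, which carries a further iron-sulfur cluster, had 494 and 546 normalized counts in MDA-MB-231 and 517 and 607 in Ca1a, with ratios of 1.104 (0.976 to 1.25) and 1.17 (1.04 to 1.32). By FPKM its knockdown ratio turned, from a log2 ratio of 0.14 by counts to -0.13 (14.7 FPKM in the control and 13.4 with knockdown). This gene has a near-identical pseudogene, NDUFV2P1, which held 445, 519, 590 and 622 reads in the same order of libraries, so its counts are uncertain.

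The accessory subunits of that end showed the only subunit that was lower beyond counting error. NDUFS6, a zinc-binding subunit that enters late in assembly, had 1191 normalized counts in the MDA-MB-231 control and 1089 with knockdown, a ratio of 0.914 (0.841 to 0.993). Its counts in Ca1a were 833 and 925, a ratio of 1.11 (1.01 to 1.22), on the other side of 1. NDUFS4, a subunit known for mutations in Leigh syndrome, stood at 1056 and 1063 and at 1017 and 1099. NDUFA12, which takes the place of the assembly factor NDUFAF2 in the finished complex, had 1229 and 1251 normalized counts in MDA-MB-231 and 721 and 711 in Ca1a, where its ratio of 0.986 (0.888 to 1.095) was among the 4 below 1. NDUFA2, with a thioredoxin-like fold, and NDUFV3, a small subunit beside NDUFV1, were within counting error in both lines. By FPKM NDUFA2 passed 1.2-fold in both. It stood at 4.61 and 3.67 FPKM in MDA-MB-231 (ratio 0.795) and at 2.65 and 3.35 in Ca1a (ratio 1.26). NDUFV3 had one of the flattest profiles, with 796, 806, 799 and 808 normalized counts.

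At the quinone-reducing end the core subunits include NDUFS7, which lines the quinone pocket, NDUFS8, with a pair of iron-sulfur clusters, and NDUFS3, which links the arm's parts. NDUFS3 had 1067 and 1195 normalized counts in MDA-MB-231, a ratio of 1.12 (1.03 to 1.22), and 936 and 990 in Ca1a, a ratio of 1.06 (0.966 to 1.16). NDUFS7 had 1248 and 1232 and then 1190 and 1207, and NDUFS8 had 2171 and 2207 and then 1158 and 1175, so all 4 of their ratios were within counting error. Over the 7 core subunits the median log2 ratio was 0.02 with knockdown, 5 of them above 0 (background 53.9%). With overexpression it was 0.08, with 7 of 7 above 0 (background 51.5%). There 3 were higher beyond counting error (background 18.1%), NDUFS1 and NDUFV2 among them.

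NDUFA5, an accessory subunit of the quinone-reducing end (Entrez 4698, chr7:123536997-123558255, minus strand, GRCh38), was 1 of the 3 called in Ca1a. It had 990 normalized counts in the control and 1196 with overexpression, a ratio of 1.21 (1.11 to 1.32), and 1595 and 1577 in MDA-MB-231, a ratio of 0.989 (0.922 to 1.06). By FPKM it stood at 4.27 and 4.76 in Ca1a, a log2 ratio of 0.15 beside 0.27 by counts, so the 1.2-fold is not reached on that scale. NDUFA7, its neighbour in the arm, had 518 normalized counts in the MDA-MB-231 control and 593 with knockdown, a ratio of 1.14 (1.02 to 1.29), and 739 and 683 in Ca1a, a ratio of 0.924 (0.832 to 1.03). NDUFA7 shares exon sequence with RPS28, an abundant ribosomal protein gene on the opposite strand, and the strand setting of the counting is not given. NDUFA9, which binds a nucleotide beside the quinone pocket, stood at 1378 and 1397 and at 1440 and 1493, within counting error in both lines.

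In the proximal membrane arm NDUFS5, a small subunit on the face towards the intermembrane space, had the largest ratio of any subunit in Ca1a. The gene (Entrez 4725, chr1:39026318-39034636, plus strand, GRCh38) overlaps no other annotated exon. It had 2001 normalized counts in the Ca1a control and 2596 with overexpression, a ratio of 1.297 (1.22 to 1.38). Its counts in MDA-MB-231 were 2114 and 2090, a ratio of 0.989 (0.930 to 1.05). By FPKM the Ca1a libraries stood at 156 and 204 and those of MDA-MB-231 at 121 and 118, so the difference in Ca1a appears on both scales. NDUFC1, a small transmembrane subunit, followed with 585 and 691 normalized counts in Ca1a, a ratio of 1.18 (1.06 to 1.32), against 654 and 686 in MDA-MB-231.

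NDUFC2, the partner of NDUFC1, had the largest ratio of MDA-MB-231, with 277 normalized counts in the control and 327 with knockdown, a ratio of 1.18 (1.004 to 1.39). Its counts in Ca1a were only 49 and 51 (ratio 1.04, 0.689 to 1.57). The gene shares exons with the read-through gene NDUFC2-KCTD14, which held 0 reads in every library but 19.6, 19.2, 3.16 and 4.04 FPKM, so NDUFC2 is uncertain on both scales. NDUFA1, an X-linked single-helix subunit, had 1558 and 1709 normalized counts in MDA-MB-231, a ratio of 1.097 (1.02 to 1.18), and 877 and 951 in Ca1a, a ratio of 1.08 (0.988 to 1.19). NDUFA10, which resembles a nucleoside kinase, had 1269 and 1386 in MDA-MB-231, a ratio of 1.09 (1.01 to 1.18), and 2042 and 2081 in Ca1a. The other 3 of this module, NDUFA8, NDUFA11 and NDUFA13, had ratios of 0.982 to 1.07 over both lines, all within counting error.

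In the distal membrane arm, the module in whose assembly TMEM126A is known to act, NDUFB1 was called in Ca1a. NDUFB1 (Entrez 4707, chr14:92116122-92121917, minus strand, GRCh38) encodes one of the smallest subunits and had 338 normalized counts in the control and 409 with overexpression, a ratio of 1.21 (1.05 to 1.40). Its MDA-MB-231 counts were 614 and 670, a ratio of 1.09 (0.977 to 1.22). Below it in Ca1a came NDUFB3, another single-helix subunit, with 395 and 465 normalized counts and a ratio of 1.18 (1.03 to 1.35), against 770 and 748 in MDA-MB-231. By FPKM its Ca1a ratio turned: 10.4 in the control and 9.98 with overexpression. NDUFB4, NDUFB5, NDUFB9 and NDUFB11 were each 1.11-fold higher in Ca1a and beyond counting error there, and stood at 0.945 to 1.06 in MDA-MB-231.

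NDUFB2 and NDUFB10 had the lowest ratios of this module in Ca1a. NDUFB10, a disulfide-rich subunit facing the intermembrane space, had 851 normalized counts in the MDA-MB-231 control and 979 with knockdown, a ratio of 1.15 (1.05 to 1.26), and 708 and 684 in Ca1a, a ratio of 0.966 (0.868 to 1.07). NDUFB2 had 1393 and 1294 in MDA-MB-231, a ratio of 0.929 (0.861 to 1.003), and 517 and 469 in Ca1a, a ratio of 0.907 (0.799 to 1.03), the only subunit below 1 in both lines. NDUFB6 had 1043 and 1153 in MDA-MB-231, a ratio of 1.105 (1.02 to 1.203), and 557 and 608 in Ca1a. NDUFB9 (533 and 504) and NDUFB8 (1890 and 1811) were below 1 in MDA-MB-231, at 0.945 (0.835 to 1.07) and 0.958 (0.898 to 1.02), both within counting error. NDUFB7 stood at 0.992 and 1.02.

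Outside the arms, NDUFAB1 had 1182 and 1194 normalized counts in MDA-MB-231 and 1469 and 1578 in Ca1a, with ratios of 1.01 (0.931 to 1.095) and 1.07 (0.9999 to 1.15). NDUFA4 had 2245 and 2290 and then 1664 and 1734, with ratios of 1.02 (0.962 to 1.08) and 1.04 (0.974 to 1.12). All 4 ratios were within counting error and within the range of the other subunits.

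**Figure D2:**
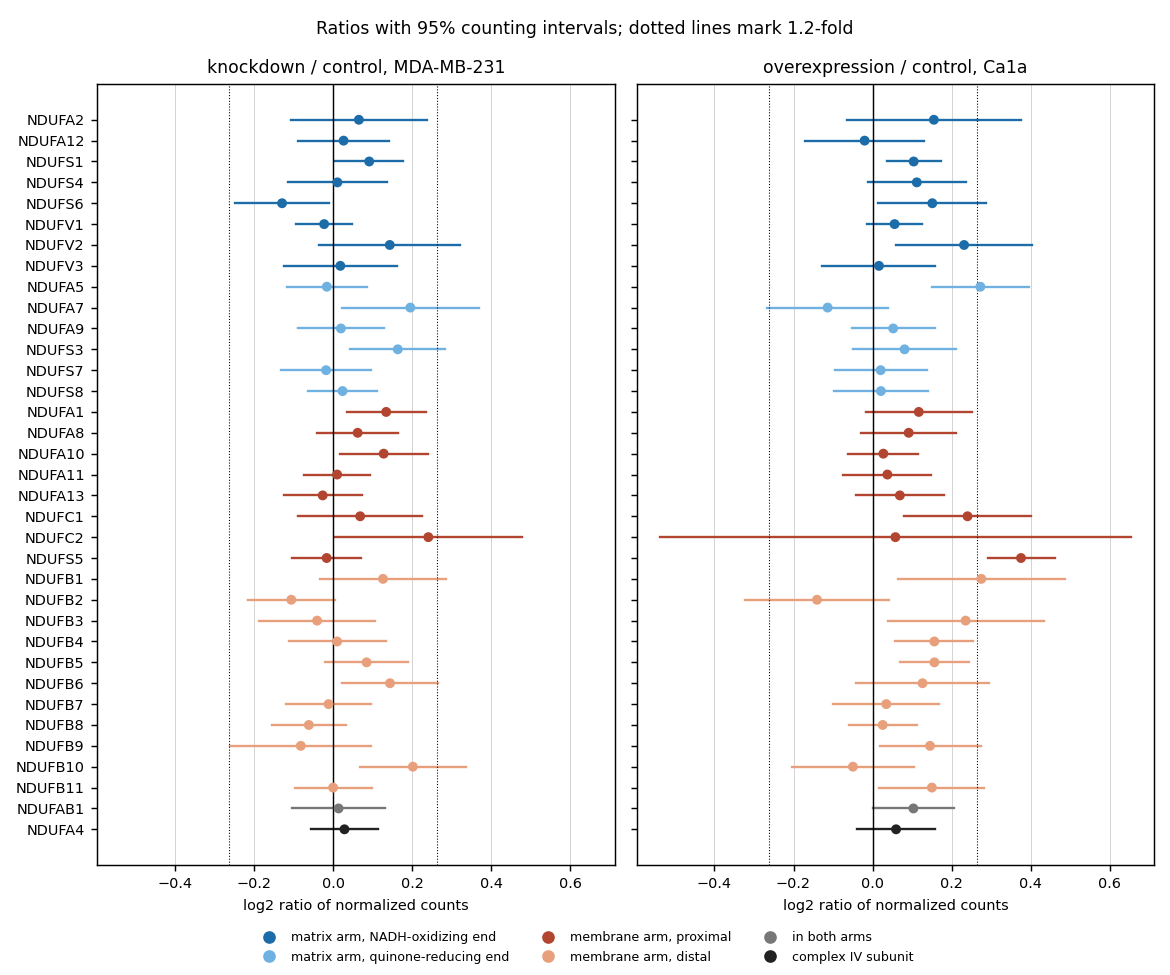
Log2 ratio of 35 subunits with the 95% counting interval in MDA-MB-231 (knockdown over control, left) and Ca1a (overexpression over control, right), with the line at 0 and dotted lines at 1.2-fold. On the left 26 of 35 intervals cross 0 and no point passes a dotted line, while on the right 31 points lie above 0 and NDUFS5, NDUFB1 and NDUFA5 pass the upper line.

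The arms were then set side by side, which asks whether the modules of the complex differ in their transcripts. With knockdown the matrix arm had a median log2 ratio of 0.02 (11 of 15 above 0, 3 higher and 1 lower beyond counting error) and the membrane arm 0.01 (11 of 19 above 0, 5 higher and 0 lower). The backgrounds over all genes tested were 53.9% above 0, 16.8% higher and 11.3% lower. With overexpression the medians were 0.08 (13 of 15 above 0, 5 higher) and 0.12 (17 of 19 above 0, 8 higher), and neither arm had a member lower beyond counting error. The backgrounds there were 51.5% above 0, 18.1% higher and 16.2% lower. The difference of the medians, membrane minus matrix, was -0.01 in MDA-MB-231 and 0.04 in Ca1a. With FPKM in place of counts it was 0.04 and 0.01. The SD among members was 0.08 to 0.12 in the arms, a spread among genes that gives no error for this difference.

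Within the arms the modules did not keep the same order in both comparisons. The distal membrane module had the lowest median with knockdown (-0.00, 5 of 11 above 0) and the highest with overexpression (0.15, 9 of 11 above 0, 6 beyond counting error). Of all genes tested 53.9% and 51.5% were above 0, and 18.1% were higher beyond counting error with overexpression. The proximal module had 0.07 and 0.08, the NADH-oxidizing end 0.02 and 0.11, and the quinone-reducing end 0.02 and 0.05. Their ranges overlapped throughout. With 1 library per group, no test of a difference between modules could be made.

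**Figure D3:**
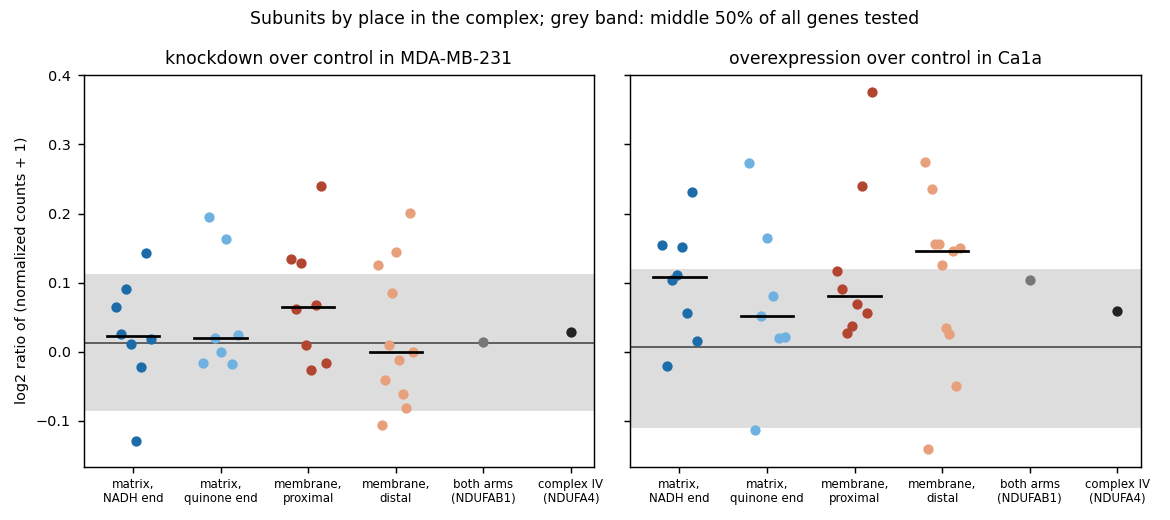
Log2 ratio of each subunit by place in the complex for MDA-MB-231 (left) and Ca1a (right), with the median of each module as a black bar, the median of all genes tested as a line and their middle 50% as a grey band. The points of all modules overlap, and in Ca1a the module medians (0.05 to 0.15) lie above the line (0.01).

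The ratios of single subunits did not run in parallel in the lines. Across the 36 subunits the log2 ratios of the comparisons, which share no library, had a Pearson r of -0.08 and a Spearman rho of -0.06. Ratios were above 0 in both comparisons for 21 subunits and below 0 in both for 1. Another 11 were below 0 with knockdown and above 0 with overexpression, among them NDUFS5, NDUFA5 and NDUFS6, and 3 were the reverse (NDUFA7, NDUFB10 and NDUFA12). With 24 of 36 ratios above 0 with knockdown and 32 of 36 with overexpression, many shared signs would arise even from unrelated ratios. The same counts and correlations over all genes are not given here, so these values show nothing particular to the subunits. Of the subunits with promoter stretches shown above, NDUFB4 had ratios of 1.01 with knockdown and 1.11 with overexpression, and NDUFA12 had 1.02 and 0.986. The 4 measured subunits with the YY1 motif at the start codon had 0.958 to 1.01 and 1.01 to 1.08, all within counting error.

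Other genes of oxidative phosphorylation gave the setting for these values. The 18 complex I assembly factors, TMEM126A among them, had a median log2 ratio of -0.03 with knockdown, 7 above 0 (background 53.9%). With overexpression it was 0.08, 11 above 0 (background 51.5%). Apart from TMEM126A, NDUFAF5 (408 with overexpression, 357 in the control) and NDUFAF7 (531 and 466) had the largest ratios in Ca1a, at 1.14 (0.989 to 1.32) and 1.14 (1.004 to 1.29). For 37 measured nuclear genes of complexes II to V the median was 0.06 with knockdown, 30 above 0 and 9 higher beyond counting error (backgrounds 53.9% and 16.8%). With overexpression their median was 0.15, with 32 above 0, 27 higher and 1 lower (backgrounds 51.5%, 18.1% and 16.2%). COX7B of complex IV (1131 and 1444 normalized counts, ratio 1.28, 1.18 to 1.38) led that list. ATP5D of complex V was the one lower (1643 and 1357, ratio 0.826, 0.768 to 0.888). The complex I median of 0.10 in Ca1a lay between those of the assembly factors and of complexes II to V.

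Many subunit genes are short, and short genes as a whole had a small shift of their own. Among genes averaging at least 500 normalized counts in Ca1a, the median log2 ratio was 0.04 for 178 genes with a longest transcript under 1000 bases, 0.05 from 1000 to 2000, 0.01 from 2000 to 4000 and -0.00 above. Subunits in the same classes had medians of 0.07 (13 genes), 0.15 (7), 0.06 (5) and 0.08 (6), each above the class as a whole. In MDA-MB-231 the classes as a whole had medians of 0.03, 0.03, 0.02 and -0.01, and the subunits 0.03, 0.00, 0.00 and 0.05. The part of length in the ratios was not tested further.

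The levels of the subunits in the controls were compared in FPKM. The median over 36 subunits was 41.6 FPKM in the MDA-MB-231 control (4.61 to 235) and 35.1 FPKM in the Ca1a control (2.65 to 156), although the protein complex holds its subunits in near-equal number. In MDA-MB-231 the highest were NDUFA1 (235 FPKM), NDUFB2 (219), NDUFA13 (181), NDUFS6 (137) and NDUFB1 (131). In Ca1a they were NDUFS5 (156 FPKM), NDUFA13 (131), NDUFA1 (129), NDUFS6 (99.1) and NDUFB5 (92.5), so 3 of 5 were in both lists. The lowest 5 in MDA-MB-231 were NDUFA2 (4.61 FPKM), NDUFA10 (6.61), NDUFA5 (6.76), NDUFV3 (8.45) and NDUFV2 (14.7). In Ca1a they were NDUFA2 (2.65 FPKM), NDUFA5 (4.27), NDUFV3 (6.84), NDUFA11 (9.32) and NDUFA10 (10.3). Neighbours in these orders often differ by little and 1 library per group gives no spread to separate them. Across the 36 subunits log2 FPKM of the controls had a Pearson r of 0.91 and a Spearman rho of 0.90, values that share each gene's length and processing.

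**Figure D4:**
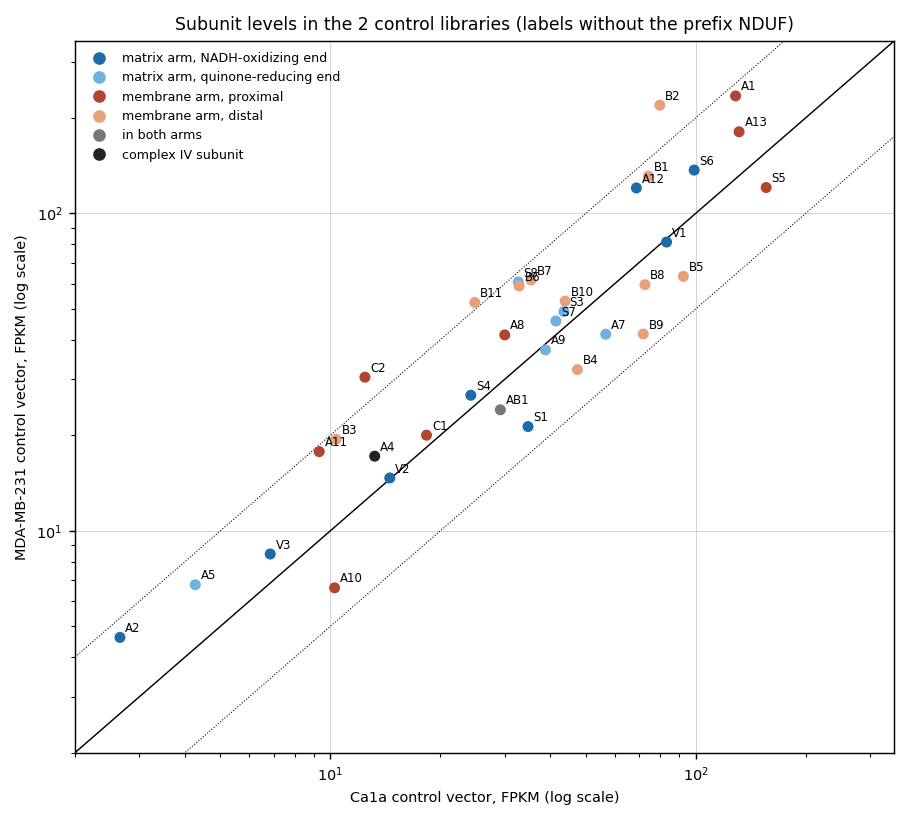
FPKM of 35 subunits in the MDA-MB-231 control (vertical, log axis) against the Ca1a control (horizontal, log axis), labelled without the prefix NDUF and coloured by place in the complex, with a line of equal level and dotted lines at 2-fold. Most subunits lie between the dotted lines, and NDUFB2, NDUFC2 and NDUFB11 lie above the upper one.

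Between the lines the subunits as a set stood where genes as a whole stood. The median log2 ratio of MDA-MB-231 over Ca1a, on log2(FPKM + 0.1), was 0.28, equal to the 0.28 over 11363 genes that averaged at least 1 FPKM, and 24 of 36 subunits were higher in MDA-MB-231 (background 60.5%). At least 2-fold higher in MDA-MB-231 were 3 (background 24.4%), and 0 were at least 2-fold higher in Ca1a (background 12.9%). NDUFB2 stood at 219 FPKM in the MDA-MB-231 control and 79.8 in the Ca1a control, 2.75-fold. NDUFB11, an X-linked distal subunit, stood at 52.4 and 24.9 FPKM, 2.11-fold, but at 1.98-fold by reads as a share of the library, and it was under 2-fold after centring on the median of all genes. NDUFC2 stood at 30.5 and 12.4 FPKM, 2.45-fold, but at 5.78-fold by reads as a share of the library, with the uncertainty named above. At 1.5-fold the counts were 13 higher in MDA-MB-231 (background 37.9%) and 3 higher in Ca1a (background 20.7%). Just under 2-fold were NDUFA11 (1.91), NDUFB3 (1.87) and NDUFS8 (1.86). Higher in Ca1a were NDUFB9 (71.8 against 41.7 FPKM, 1.72-fold), NDUFS1 (34.8 against 21.3, 1.63-fold) and NDUFA10 (10.3 against 6.61, 1.55-fold). The lines differ in origin, medium and vector, and these cannot be told apart here.

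Genes close to some of these subunits differed in the same direction, and those close to others did not. Over genes within 2 Mb, the median log2 ratio between the controls was 0.92 for the 16 around NDUFC2 and 0.85 for the 36 around NDUFB11. It was -0.43 for the 19 around NDUFB9 and -0.54 for the 11 around NDUFS1. It was 0.56 for the 57 around NDUFS8 and -0.19 for the 27 around NDUFA10. Around NDUFB2 it was 0.23 (17 genes), below the 0.28 of all genes while NDUFB2 itself stood at 1.46. Likewise it was 0.12 around NDUFB3 (25 genes) and 0.27 around NDUFA11 (60 genes). NDUFB3 and NDUFA11 themselves stood at 0.90 and 0.92. The part of position in the genome was not tested.

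By arm, the matrix arm had a median log2 ratio of MDA-MB-231 over Ca1a of 0.14 (SD 0.46 over 15 subunits) and the membrane arm 0.46 (SD 0.71 over 19). The 7 core subunits stood nearly level between the lines, with a median of 0.01, from -0.70 for NDUFS1 to 0.89 for NDUFS8. The distal membrane module had 0.80 and was split, with 7 of 11 higher in MDA-MB-231 and 4 higher in Ca1a (NDUFB4, NDUFB5, NDUFB8 and NDUFB9). The SD is a spread among genes and gives no error for the difference between the arms.

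The order of levels within the complex depended on the transcript length used. The length implied by reads and FPKM of the MDA-MB-231 control was 0.173 to 7.06 times the longest protein-coding transcript in GENCODE release 29 (median 1.06), the lowest for NDUFC2 and the highest for NDUFA2. In the Ca1a control these genes stood at 0.0735 and 7.17 times. With reads per kilobase of that transcript in place of FPKM, log2 levels in the MDA-MB-231 control correlated with log2 FPKM at r = 0.53 over 36 subunits (0.50 in Ca1a). NDUFS5 was then the highest in both controls, at 185 and 171 RPKM. The ratios between treated and control libraries of a gene do not use its length, except where FPKM is named.

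**Figure D5:**
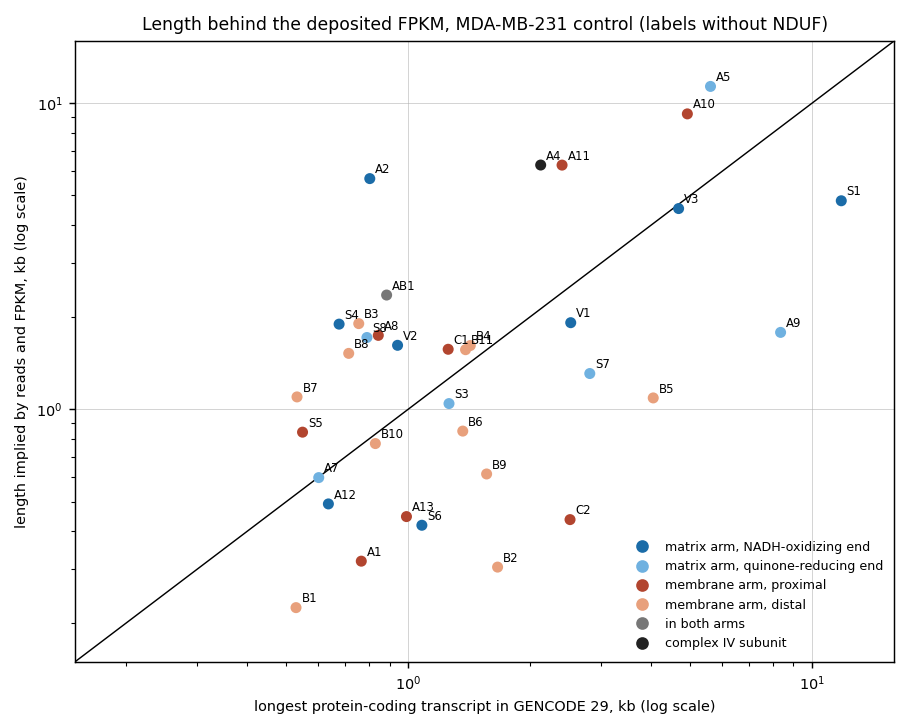
Transcript length in kilobases implied by the deposited reads and FPKM of the MDA-MB-231 control (vertical, log axis) against the longest protein-coding transcript in GENCODE release 29 (horizontal, log axis), for 35 subunits, labelled without NDUF, with a line of equality. Points lie far on both sides of the line, from NDUFC2 below it (0.173 times) to NDUFA2 above it (7.06 times).

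Of the 38 subunit genes 22 share exon sequence with another annotated gene, 13 on the same strand and 17 on the opposite strand. Besides the cases named, NDUFS1 overlaps EEF1B2, NDUFB2 overlaps BRAF, ADCK2 and NDUFB2-AS1, and NDUFB11 overlaps RBM10. Reads of such pairs can be split or dropped in counting. NDUFS5, NDUFA5 and NDUFB1 overlap no annotated exon of another gene, which removes this source of error but not that of length. Between the controls NDUFS5 was higher in Ca1a by FPKM (156 against 121). By reads as a share of the library it was 1.08-fold higher in MDA-MB-231 (1.02 to 1.15).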

How the data were processed

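RNA-seq of total RNA was analysed from 4 cultures in 4 groups of 1 library each. The submitters' processing notes name GRCh38.p5 and hg38 as builds and HTSeq, HISAT2, DESeq and Cufflinks as tools. Their versions and roles, and the strand setting, were not given in the sources used here. Ca1a values were deposited as read counts per gene (per the file headers a base mean for each library, all whole numbers). Those deposited for MDA-MB-231 are a signal, reads scaled by a size factor per library, and all were whole multiples of 1 read (tolerance 1e-06, 100% of values). The deposited tables also hold the authors' fold changes, log2 fold changes and p-values, which were copied. The FPKM of all 4 libraries are the authors' values, with a length basis that is not given.

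Computed here were log2 ratios with a pseudocount of 1, for genes averaging at least 20 normalized counts, and exact intervals at 95%. No test between conditions was possible. Calls were tested on simulated data. Gene positions and lengths are from GENCODE release 29 (GRCh38), and promoters from RefSeq (GRCh38.p14). The members, lists and rules were chosen with earlier results of these data known. Named in full were the subunits called, the 5 highest and 5 lowest per comparison and control, those at least 2-fold apart between controls, the core subunits, NDUFA4, NDUFAB1 and up to 3 genes per other list. Values of 1 subunit are not reported singly here. Others were named within their modules after their values were seen. Alternatives were FPKM, other scalings (total reads, median ratio, TMM), pseudocounts, filters and thresholds. Reads as a share of the library between the controls, reads per kilobase of the GENCODE transcript, and leaving out the 3 called subunits were chosen after seeing the data. Software was python 3.11.15, numpy 2.4.6, pandas 2.3.3, scipy 1.17.1, matplotlib 3.10.9, R 4.3.3 and edgeR 4.0.16 (TMM only).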

Additional observations from a re-analysis of the deposited data

How the results depend on the processing

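With 1 library per group no result has a replicate check, and the intervals cover counting error only. No paired analysis was possible because each group held 1 library. The median log2 ratio of the subunits with overexpression kept its sign under all 12 alternatives (0.08 to 0.11), and was 0.08 without the 3 called subunits, an alternative chosen after seeing the data. With knockdown it was -0.013 when scaled by total reads (all genes -0.02, 14 of 36 above 0 in place of 24), so its sign depends on the scaling. At 1.1-fold in place of 1.2-fold 5 subunits were called higher with knockdown (NDUFC2, NDUFB10, NDUFA7, NDUFS3 and NDUFB6, background 11.4%) and 12 with overexpression (background 13.5%); by the counting interval alone these were 8 and 13, and 1 was called lower with knockdown (NDUFS6). By FPKM 1 was called lower with knockdown (NDUFA2) and 0 higher, where 8.03% of all genes were called higher. The share of all genes called lower by FPKM is not given here. Between the controls, 1 subunit (NDUFB9) was at least 2-fold higher in Ca1a after centring on the median of all genes and 2 in MDA-MB-231 (3 before, NDUFB11 lost), and reads as a share of the library also gave 2 there. The backgrounds over all genes under centring and by reads as a share are not given here. At 1.5-fold 13 were higher in MDA-MB-231 (background 37.9%) and 3 in Ca1a (NDUFB9, NDUFS1 and NDUFA10, background 20.7%). Rescaling FPKM to the same sum in each library, as in TPM, gave median levels of 139 in MDA-MB-231 and 113 in Ca1a, since the deposited values sum to less. Single subunits were rerun only if called, among the extremes of a comparison or core, besides NDUFA4 and NDUFAB1. Of these values 314 stayed close to the reported ones and 3 moved beyond their interval. The 3, all by FPKM, were NDUFV2 with knockdown (-0.13), NDUFB3 (-0.05) and NDUFS7 (0.17) with overexpression. Among subunits not rerun, the FPKM ratio also lay outside the counting interval for NDUFA2 (0.795) and NDUFA11 (0.930) with knockdown. The same held for NDUFB7 (1.19) with overexpression.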

Other observations

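The 2 subunits without reads lie among genes that also had few. Of the 10 genes nearest to NDUFA3 on chromosome 19, 5 on each side, 6 had at most 3 reads in every library (VSTM1, TARM1, OSCAR, TFPT, LENG1 and TMC4), and PRPF31, which encodes a splicing factor that every cell uses, had 4 to 13 reads. Of the 10 nearest to NDUFA6 on chromosome 22, 2 had at most 3 reads in every library (SMDT1 and CYP2D6). Of all 20183 protein-coding genes, 29.7% were at or under that level. The cause was not tested.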
